A study of Oryza sativa with 6 samples.

Results

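Germin-like proteins are small secreted proteins of the plant cell wall that share the cupin fold, a beta barrel that usually holds a metal ion. The family is named after germin, an oxalate oxidase of germinating wheat that makes hydrogen peroxide from oxalate, and some germin-like proteins of other plants have superoxide dismutase activity. In rice the genes stand largely in tandem arrays, and the array on the short arm of chromosome 8 has been linked to resistance against blast and sheath blight. The genes described here, called the family below, are the 37 features, of 91080 in the expression table, whose description contains "germin-like". Only 3813 features have a description, so members without one would be missed. They lie on 8 chromosomes and are named by chromosome and order, so that Germin-like protein 8-2 (GLP 8-2) is on chromosome 8. No sequences of these genes are printed here, and what each single member does in the grain is not given by the table.

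RNA was sequenced from developing seeds of paddy-grown rice (Oryza sativa) labelled 15 DAF, at the filling stage. The mutant line NIL-gaf1 and the wild-type line NIL-GAF1 are near-isogenic lines, that is, lines bred to share most of their genome and to differ at a chosen region, and each had 3 libraries. The titles also carry the names F1287gif2 and F1288GIF2, and the labels do not say which gene or region differs or whether each library is a separate plant. P-values therefore reflect only how far these samples spread, and that spread may be technical. Seeds hold several tissues, so fewer cells of a type and less RNA per cell cannot be told apart.

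Where 3 values are given for a line, they are those of its libraries 1, 2 and 3 in that order. Total counts were 21200210 to 25402680 in the mutant and 17236796 to 22454000 in wild type. Transcripts of seed storage proteins and seed allergens, markers of the labelled tissue, were present in all libraries and set the mutant libraries apart from each other. The 21 features of that kind held 0.414%, 7.18% and 21.5% of all counts in the mutant, and 37.0%, 43.5% and 39.4% in wild type. Because of this, the scaling of the libraries matters. Levels are given as normalized CPM, that is, counts divided by a library size that TMM adjusts so that the typical gene is centred, and log2 fold changes are mutant minus wild type. With plain total-count scaling the median over all tested features was 1.27 on the log2 scale in place of 0.06, so each direction below is relative to the typical gene.

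Of the 37 genes, 16 had enough counts to be tested and 21 did not. A gene high in a single line can enter the test through that line, so counts among the 16 are a description. In the mutant 6 rose (GLP 9-3, 8-12, 3-1, 5-1, 2-4 and 3-7) and 2 fell (GLP 3-8 and 3-3), each by at least 2-fold, while 8 did not pass (edgeR quasi-likelihood test, adjusted p under 0.05 over all 22937 features tested). Over all of these features, 15.8% were called higher and 15.4% lower. In these 8 genes, and in no other tested member, all mutant libraries lay on one side of all wild-type libraries, 6 above and 2 below, against 25.3% above and 23.8% below among all features tested. The median log2 fold change was 0.35 for the 16 genes and 0.06 for all tested features. The plot of levels by library shows the 8 separated genes and the single gene that stands far above the rest.

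**Figure D1:**
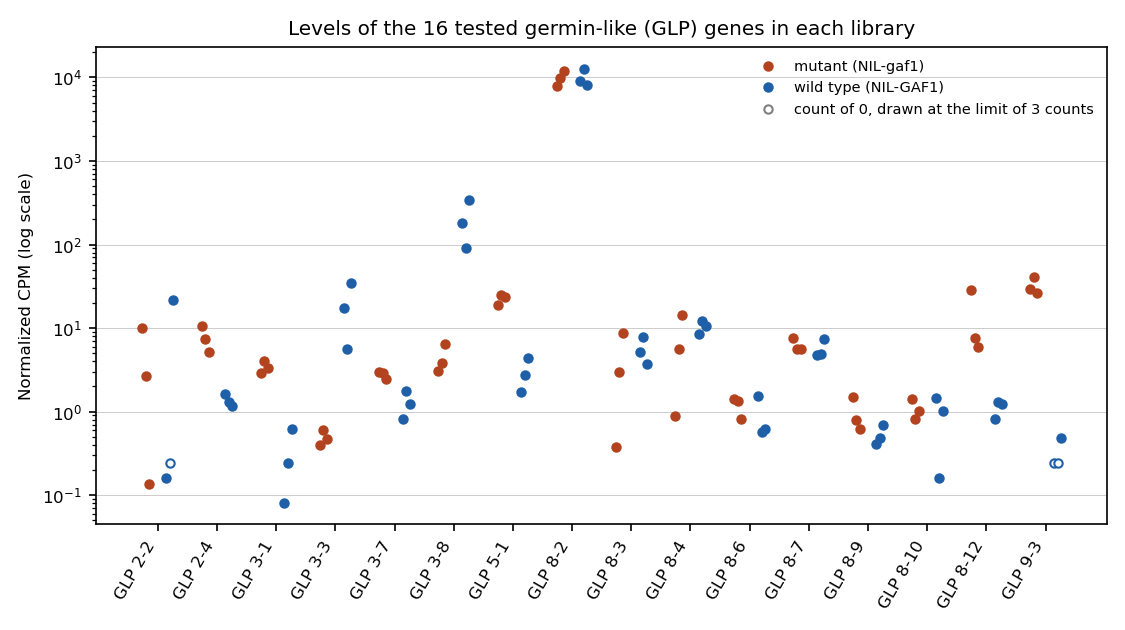
Normalized CPM on a log scale (y) of the 16 tested germin-like genes (x) in each library. Each point is 1 library, 3 per line, and open points are counts of 0 drawn at the limit that 3 counts give. GLP 8-2 lies between 7840.25 and 12698 in both lines, while GLP 3-3 and 3-8 are lower in all 3 mutant libraries and GLP 2-4, 3-1, 3-7, 5-1, 8-12 and 9-3 are higher.

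GLP 8-2, with the symbol GER3 (OS08G0189100, chromosome 8, 5208389 to 5209389, coordinates as in the table, whose build the sources used here do not name), supplied nearly all transcripts of these 37 genes in the grain. It made up 98.5%, 98.8% and 99.1% of the family's counts in the mutant, and 97.6%, 99.0% and 94.9% in wild type. Per transcript length it was at 17814, 18394 and 16493 FPKM in the mutant, which ranked it 1, 1 and 4 among all features. In wild type it was at 7925, 9615 and 6345 FPKM, at ranks 19, 20 and 21.

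Whether GLP 8-2 differed between the lines depended on the scaling. Its share of all counts was 1.47%, 1.52% and 1.36% in the mutant, above the 0.655%, 0.795% and 0.525% in wild type. In normalized CPM the groups overlapped, with 7840.25, 9703 and 11804 in the mutant and 9172, 12698 and 8062 in wild type. The log2 fold change was -0.03 (SE 0.56, edgeR adjusted p = 0.98). With total-count scaling it was 1.14 (adjusted p = 0.035), in a fit that called 71.9% of all features higher and 3.76% lower. With total-count scaling after the storage and allergen features were removed it was 0.55 (adjusted p = 0.2). Relative to the typical gene GLP 8-2 was therefore not called, while as a part of all transcripts it was larger in each mutant library.

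The table places 29 of the 37 genes in 8 tandem clusters, taken as runs of members whose starts are at most 50 kb apart, and 8 genes stand alone. The largest cluster, with the 10 genes GLP 8-1 to 8-10, spans 74.4 kb of chromosome 8 (5186875 to 5261296). The others are GLP 1-3 and 1-4 on chromosome 1 (41914683 to 41919058), GLP 2-1 to 2-3 on chromosome 2 (17165188 to 17175893), GLP 3-3 to 3-6 on chromosome 3 (27779100 to 27792047), GLP 3-7 and 3-8 on chromosome 3 (33586465 to 33591872), GLP 8-13 and 8-14 on chromosome 8 (22553089 to 22559044), GLP 9-1 to 9-3 on chromosome 9 (22695120 to 22700959) and GLP 12-1 to 12-3 on chromosome 12 (2688759 to 2697214). No other tested feature lies inside any of these spans. All 7 tested genes of the large chromosome 8 cluster were uncalled by edgeR (none had an unadjusted p under 0.05, and DESeq2 and limma-voom called 0). Limma on FPKM, where the typical gene is shifted up, called 5 higher, in a fit that called 14644 of 20527 features higher. Of the 5 tested genes in other clusters 2 rose, 2 fell and 1 did not pass. Of the 8 genes that stand alone, 4 were tested and all 4 rose, while the rest had too few counts. Over all tested features 15.8% were called higher. Genes high in the mutant alone can enter the test through it, so this count is a description. The clusters are few and their genes share a neighbourhood, so these counts were not tested against each other.

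**Figure D2:**
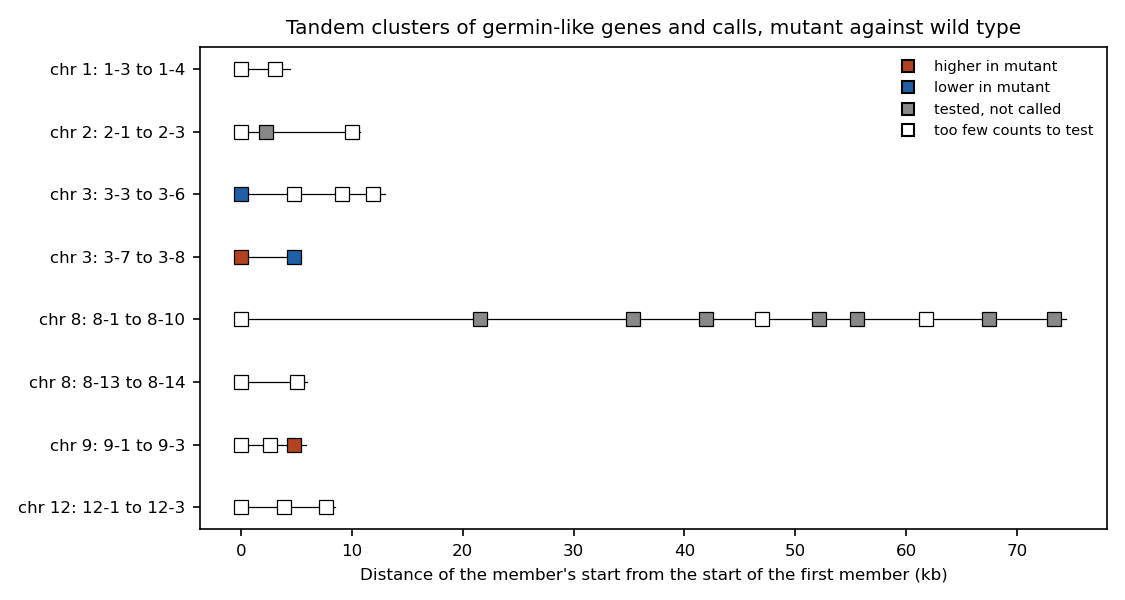
Start of each clustered germin-like gene as its distance in kb from the first member of its cluster (x), with 1 line per cluster (y) named by chromosome and first and last member. Squares are coloured by the edgeR call, and white squares had too few counts to test. GLP 3-7 and 3-8 are neighbours called in opposite directions, and none of the 7 tested genes among GLP 8-1 to 8-10 was called.

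In the pair GLP 3-7 and 3-8 on chromosome 3, the neighbours were called in opposite directions. GLP 3-8 (OS03G0804700, 33591195 to 33591872) was the second most abundant family member of the wild-type grain per length, with 192, 83.7 and 325 FPKM in wild type. It was at 3.09, 3.84 and 6.44 normalized CPM in the mutant, and at 182, 90.6 and 338 in wild type. Every mutant library lay far below every wild-type library. It was 45.9-fold lower in the mutant (log2 fold change -5.52 with SE 0.55, edgeR adjusted p = 0.00055).

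GLP 3-7, with the symbol GER7 (OS03G0804500, 33586465 to 33587320), starts 4.73 kb before GLP 3-8. It was at 2.99, 2.89 and 2.45 normalized CPM in the mutant, and at 0.812, 1.78 and 1.23 in wild type. The mutant libraries were all higher, but the gap was small. It was 2.18-fold higher (log2 fold change 1.12 with SE 0.34, adjusted p = 0.038), and it was no longer called when mutant library 1 (adjusted p = 0.075) or 2 (0.12), or wild-type library 1 (0.11) or 3 (0.1), was left out. A ratio of both genes within a library needs no scaling. Counts of GLP 3-8 were 1.03, 1.33 and 2.62 times those of GLP 3-7 in the mutant, and 225, 50.8 and 275 times in wild type. These ratios did not overlap between the lines (two-sided exact permutation p = 0.1, the smallest that 3 against 3 allows, and 0.3 when adjusted over the 3 pairs of genes compared, which were chosen after their values were seen).

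GLP 3-3 (OS03G0693700, chromosome 3, 27779100 to 27780096) was the other member that fell. It was at 0.402, 0.609 and 0.477 normalized CPM in the mutant, and at 17.3, 5.59 and 35.0 in wild type. The groups were well apart, and it was 38.7-fold lower (log2 fold change -5.27 with SE 0.67, adjusted p = 0.0013). Without wild-type library 3 it was 22.97-fold lower (adjusted p = 0.0034). GLP 3-3 and GLP 3-8 lie in separate clusters. Counts of GLP 3-8 were 7.69, 6.30 and 13.5 times those of GLP 3-3 in the mutant, and 10.5, 16.2 and 9.66 times in wild type, which overlapped (exact permutation p = 0.4, adjusted 0.6). The pair was chosen after both genes had been called lower by similar amounts, so this test cannot show whether they move together. The neighbours of GLP 3-3 in its cluster were scarcely detected: GLP 3-4, 3-5 and 3-6 had 4, 23 and 9 counts over all 6 libraries, none of them in wild type. For GLP 3-5 the mutant levels were 0.351, 0.159 and 0.102 normalized CPM, while a count of 0 in wild type allows 0.205 to 0.244 (3 counts per library, counting error only). Mutant library 1 lay above those limits and the other two below, and the gene had too few counts to be tested.

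Some tissue markers were also lower in the mutant. Over all tested features 15.8% were called higher and 15.4% lower. Of 5 embryo and aleurone markers (oleosins and late embryogenesis proteins), 4 fell and none was at 0 in all libraries, and their summed level was 291 to 1430 normalized CPM in the mutant and 3016 to 3594 in wild type. Of 17 starchy endosperm markers 15 were tested, 1 rose, 2 fell and 1 had no counts, with sums of 2340 to 175288 in the mutant and 464800 to 627089 in wild type. Of 23 green pericarp markers 4 had no counts, and edgeR called none of the 19 tested (3 had an unadjusted p under 0.05, and DESeq2 called 2, limma-voom 0 and limma on FPKM 15). Over all 20527 features in its fit, limma on FPKM called 14644 higher and 866 lower. Their sums overlapped at 1170 to 2054 and 1362 to 1675. In mutant libraries 1, 2 and 3 the embryo and aleurone sum was 291, 708 and 1430, and the endosperm sum 2340, 43720 and 175288. GLP 3-8 was there at 3.09, 3.84 and 6.44 normalized CPM, and GLP 3-3 at 0.402, 0.609 and 0.477. The part of the tissue makeup in the levels of GLP 3-3 and 3-8 was not tested.

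GLP 9-3 (OS09G0568700, chromosome 9, 22699925 to 22700959) rose most. It had 1172, 1561 and 765 counts in the mutant and 0, 0 and 7 counts in wild type, or 29.4, 41.4 and 26.1 against 0, 0 and 0.479 normalized CPM. It ranked second in the family in the mutant by mean FPKM and was nearly absent in wild type. The log2 fold change was 7.48 (SE 0.62, adjusted p = 2.8e-04). Summed over libraries the mutant to wild-type ratio was 184, with a 95% exact interval of 89.0 to 457 that covers counting error only. All wild-type counts came from library 3. Without it the gene was at least 133-fold higher than the mean level that 3 counts per library give. The other genes of this cluster did not share the level: GLP 9-2 had 10 counts in all, all in the mutant, and GLP 9-1 had none.

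The 4 other genes that rose at least 5-fold stand alone. GLP 5-1 (OS05G0277500, chromosome 5, 11467161 to 11468078) had levels of 18.7, 24.7 and 23.4 normalized CPM in the mutant and 1.71, 2.76 and 4.38 in wild type. It was 7.48-fold higher, with mutant libraries close together (log2 fold change 2.90 with SE 0.31, adjusted p = 6.8e-04). GLP 2-4 (OS02G0532500, chromosome 2, 19597550 to 19598541) was at 10.6, 7.34 and 5.21 against 1.62, 1.30 and 1.16, 5.69-fold higher (log2 fold change 2.51 with SE 0.33, adjusted p = 0.0015). The gap between the lines was larger than the spread within either line for GLP 5-1. For GLP 2-4 it was larger than the spread within wild type but smaller than that within the mutant.

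GLP 3-1 (OS03G0179100, chromosome 3, 4157591 to 4158512) had levels of 2.86, 4.0 and 3.34 normalized CPM in the mutant and 0.0812, 0.243 and 0.616 in wild type, where it had 1, 3 and 9 counts. It was 10.3-fold higher (log2 fold change 3.37 with SE 0.52, adjusted p = 0.0029), and 20.3-fold higher without wild-type library 3. GLP 8-12 (OS08G0231400, chromosome 8, 7994404 to 7995717), outside the large cluster of its chromosome, was at 28.8, 7.68 and 5.96 against 0.812, 1.30 and 1.23. Mutant library 1 was far above the other two. GLP 8-12 was 12.6-fold higher (log2 fold change 3.66 with SE 0.68, adjusted p = 0.0058), and 6.10-fold higher without mutant library 1. With limma-voom it did not pass (adjusted p = 0.078).

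**Figure D3:**
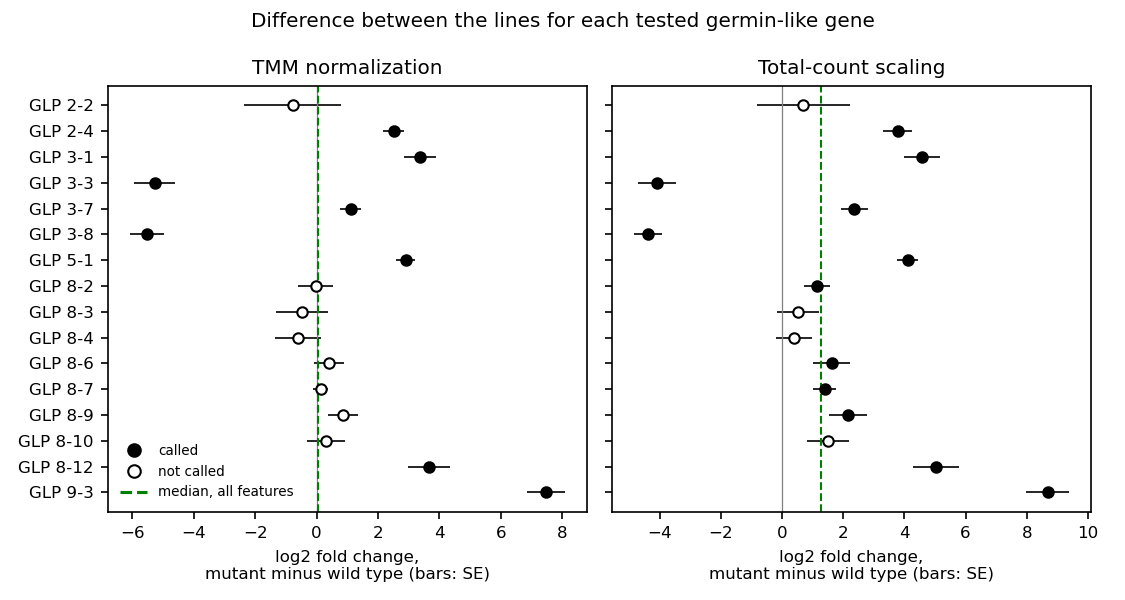
Log2 fold change, mutant minus wild type (x), of each of the 16 tested genes (y) with TMM normalization (left) and total-count scaling (right). Bars are standard errors, filled points passed an adjusted p under 0.05, and the dashed line is the median of all tested features, 0.06 and 1.27. GLP 3-3 and 3-8 are negative and the 6 genes that rose are positive on both scales, while GLP 2-2, 8-2, 8-3 and 8-4 change sign.

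Inside the large chromosome 8 cluster, the genes next to GLP 8-2 were low, with mean levels of at most 10.5 normalized CPM in either line. GLP 8-3 (symbol GER2) and GLP 8-4 (GER1) varied widely among the mutant libraries. GLP 8-4 was at 0.879, 5.64 and 14.3 normalized CPM in the mutant, and at 8.61, 12.3 and 10.5 in wild type. GLP 8-3 was at 0.377, 2.99 and 8.82 against 5.11, 7.86 and 3.76. Within the mutant both were lowest in library 1, which had the smallest share of storage transcripts of the 3 (0.414%), and highest in library 3, which had the largest (21.5%). In wild type, whose shares were 37.0%, 43.5% and 39.4%, GLP 8-4 was lowest in library 1 and highest in library 2. GLP 8-3 was highest in library 2 as well, and lowest in library 3. Whether either gene follows the storage share was not tested. Both genes were lower in each wild-type library than in mutant library 3. Their lines overlapped and neither passed (log2 fold change -0.60 with SE 0.74, adjusted p = 0.57 for GLP 8-4, and -0.47 with SE 0.84, adjusted p = 0.7 for GLP 8-3), and both values were positive with total-count scaling (0.39 and 0.51).

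GLP 8-7 (GER6) was nearly even, at 7.61, 5.64 and 5.55 normalized CPM in the mutant and 4.71, 4.94 and 7.39 in wild type (log2 fold change 0.14 with SE 0.24, adjusted p = 0.7). GLP 8-6, 8-9 and 8-10 were between 0.162 and 1.54 normalized CPM in the 6 libraries, with log2 fold changes of 0.40 (SE 0.48), 0.87 (SE 0.50) and 0.30 (SE 0.62), and none passed (adjusted p = 0.57, 0.22 and 0.74). With total-count scaling GLP 8-6, 8-7 and 8-9 were called higher.

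Tandem copies can be alike in sequence, and how the authors counted reads that match several copies is not given in the sources used here, so levels within this cluster are uncertain. The part of shared reads in these levels was not tested. A neighbour's count as a percentage of the GLP 8-2 count in the same library does not depend on the scaling. For GLP 8-4 it was 0.0112%, 0.0581% and 0.122% in the mutant and 0.0938%, 0.097% and 0.131% in wild type. The highest was 11.7 times the lowest for GLP 8-4, 15.6 times for GLP 8-3 and 2.49 times for GLP 8-7. For the scarcer GLP 8-10, 8-9 and 8-6 it was 14.3, 4.93 and 4.01 times, and GLP 8-10 had only 2 counts in wild-type library 2. Counts of GLP 8-4 were 1.57 to 2.80 times those of GLP 8-3 in all 6 libraries (exact permutation p = 1 between the lines, adjusted 1), a narrower range than either gene had against GLP 8-2.

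**Figure D4:**
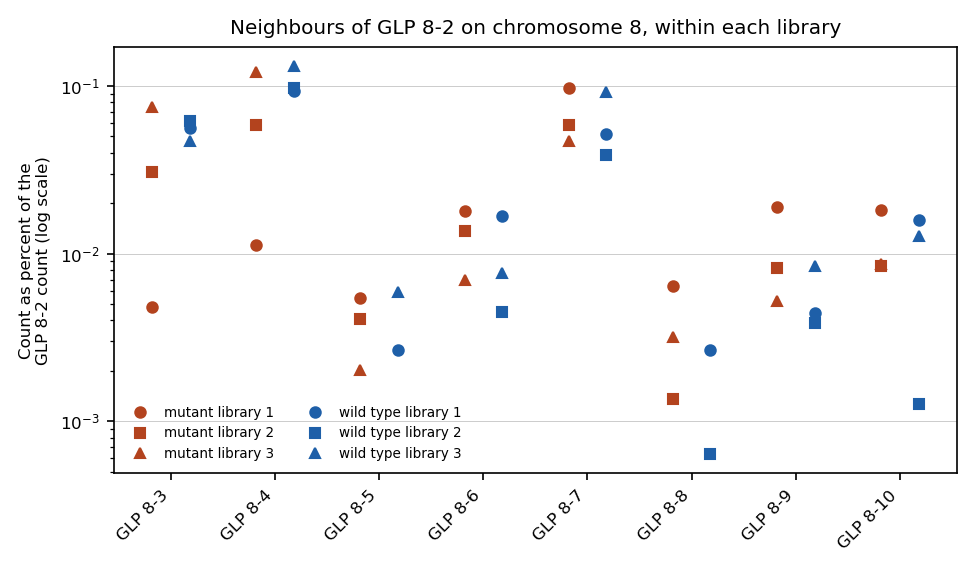
Count of each neighbour of GLP 8-2 in its cluster as a percentage of the GLP 8-2 count in the same library, on a log scale (y), for GLP 8-3 to 8-10 (x). Colours mark the line and symbols the library; counts of 0 are not drawn. GLP 8-3 and 8-4 are lowest in mutant library 1, at 0.0048% and 0.0112%, and their other libraries lie between 0.0308% and 0.131%.

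GLP 2-2 (OS02G0491700, chromosome 2, 17167417 to 17168289) was not repeatable within either line. It was at 9.94, 2.68 and 0.136 normalized CPM in the mutant, and at 0.162, 0 and 21.6 in wild type. A single library in each line held most of its counts (396 of the mutant and 315 of the wild-type counts), and the lines overlapped fully (log2 fold change -0.78 with SE 1.57, adjusted p = 0.74). Without wild-type library 3 the log2 fold change was 5.63 (adjusted p = 0.11). Its cluster neighbours GLP 2-1 and 2-3 had 1 and 0 counts.

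Of the 21 genes that were not tested, 6 had no counts in any library (GLP 1-4, 2-3, 3-2, 8-1, 8-13 and 9-1). The other 15 had 1 to 49 counts over all libraries and at most 20 in any one. Among these, 7 had counts in the mutant alone, 1 in wild type alone and 7 in both lines. The effective depth was larger in the mutant, where a count of 0 allows 0.0753 to 0.102 normalized CPM against 0.205 to 0.244 in wild type. GLP 8-14 (GER5), known in rice as a cell wall protein with superoxide dismutase activity, had 7 counts, all in mutant library 1.

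The genes around the clusters were called about as often as all features. Of 74 tested features that are no members and lie within 50 kb of a cluster, 11 rose and 9 fell, shares close to the 15.8% higher and 15.4% lower over all features tested. Without mutant library 2 these numbers were 6 and 5, and without wild-type library 1 or 3 there were 7 rises. Calls over all features fell as well, to 2003 rises and 2009 falls of 23277 without mutant library 2. Rises were 2216 of 24048 without wild-type library 1 and 2492 of 23904 without library 3, against 3619 of 22937 with all libraries. Within 50 kb of GLP 3-7 and 3-8 edgeR called none of 13 features (3 had an unadjusted p under 0.05, and DESeq2 called 1, limma-voom 0 and limma on FPKM 11). The FPKM fit called 14644 of all its 20527 features higher and 866 lower. Around GLP 3-3 to 3-6, 2 of 8 fell and none rose, and around GLP 9-1 to 9-3, 4 of 23 rose and 2 fell.

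Among other enzymes of the chemistry that germins are known for, more were called higher than lower. Of 19 tested enzymes and helpers of superoxide, hydrogen peroxide and oxalate metabolism, 8 rose, 3 fell and 8 did not pass, with a median log2 fold change of 0.62. Over all tested features 15.8% rose and 15.4% fell, with a median of 0.06, so the number of falls in the list was close to that background. The 8 that rose were 6 ascorbate peroxidases, which reduce hydrogen peroxide, an oxalate--CoA ligase, which takes oxalate into its breakdown, and an NADPH oxidase of the kind that makes superoxide outside the cell. The ligase (OS04G0683700) had levels of 684, 662 and 582 normalized CPM in the mutant and 249, 271 and 287 in wild type (log2 fold change 1.26 with SE 0.21, adjusted p = 0.0039). APX6 (OS12G0178100; log2 fold change 1.45 with SE 0.15, adjusted p = 5.9e-04) and APX7 (1.17 with SE 0.19, adjusted p = 0.0034) rose, and CCS, the copper chaperone of superoxide dismutase, fell (log2 fold change -1.23 with SE 0.23, adjusted p = 0.0066). The other falls were 2 superoxide dismutases, a copper-zinc and an iron form. Under total-count scaling 18 of the 19 listed genes were called higher and 0 lower, in the fit that called 71.9% of all features higher. Without wild-type library 1 the list had 3 rises and 1 fall, without mutant library 2 it had 4 and 1, and without wild-type library 3 it had 4 and 2. Calls over all features fell in these fits too, from 3619 rises and 3529 falls among 22937 features. They were 2216 and 2341 of 24048, 2003 and 2009 of 23277, and 2492 and 2453 of 23904, in the same order.

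The glutelins, storage proteins built of a pair of cupin domains, were negative in all 8 genes (median log2 fold change -2.72). None passed the edgeR test (smallest adjusted p = 0.15, for GLUB4; 0 with an unadjusted p under 0.05), while DESeq2 called 6 lower, limma on FPKM 6 and limma-voom 1. Without mutant library 1 edgeR called 3 lower and without mutant library 3 it called 2.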

How the data were processed

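The authors deposited 1 table with raw read counts and FPKM (fragments per transcript length and library size) per feature and library, per the file headers. The submitters' processing notes list Bowtie 0.12.2. How reads were counted (tool, strand, reads that match several genes) and the genome build are not given in the sources used. Germin-like genes were found by the words of the description. Counts of all features were tested with edgeR 4.0.16 in R 4.3.3 (filterByExpr, TMM, glmQLFit, glmQLFTest, no covariates, Benjamini-Hochberg adjustment over 22937 features, called under 0.05). Standard errors come from the log2 fold change and its F statistic. FPKM served to compare genes with each other and, as log2(FPKM + 1) in limma 3.58.1, as an alternative. Other alternatives were limma-voom, DESeq2 1.42.0, other scalings, other filters, an adjusted p under 0.01, the replicate block and each library left out. Ratios were compared by exact permutation (scipy 1.17.1). The edgeR code was tested on simulated data.

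Libraries of a line differed by more than counting noise (mean chi-square of 10.9 to 366 a gene), so none was counted as a copy. Clusters are runs of starts at most 50 kb apart. Named are all tested members, with values per library for those called or averaging 5 normalized CPM or more, and up to 4 genes of each other list by adjusted p. The list of superoxide, hydrogen peroxide and oxalate enzymes, the glutelins and the tissue markers were taken by words in the description. Features without a description could not be found this way. Members and lists were chosen with earlier results of these data known. Intervals and limits from 3 counts cover counting error only.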

Additional observations from a re-analysis of the deposited data

How the results depend on the processing

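Over the alternatives, GLP 3-8, 3-3, 9-3, 5-1, 2-4 and 3-1 kept direction and call wherever they could be fitted, each with an adjusted p of at most 0.0178. The number of germin-like genes called lower was 2 throughout. The number called higher (6) was 10 with total-count scaling, 3 with a mean of at least 5 normalized CPM (fewer genes tested), 11 with limma on log2(FPKM + 1), and 5 to 6 with 1 library left out. The FPKM fit called 14644 of all its 20527 features higher. GLP 3-7 did not pass at an adjusted p under 0.01 (0.038). With the replicate number as a block, 5 rose and 2 fell, and GLP 3-7 did not pass (adjusted p = 0.065); correlations of same-numbered libraries were -0.043 to 0.068, so the numbers were not taken as pairs. Signs reversed only for genes uncalled in the main fit. Of these, GLP 8-2 was called higher with total-count scaling (edgeR adjusted p = 0.035) and on FPKM (limma adjusted p = 0.002). For GLP 2-2 the log2 fold change was 1.25 with the replicate block, 0.68 with total-count scaling, 1.53 with limma-voom, 1.04 on FPKM and -2.34 to 5.63 with 1 library left out (5.63 without wild-type library 3). For GLP 8-2 it was 1.14 and, without storage features, 0.55 with total-count scaling, 0.11 without a filter, 0.028 with DESeq2, 1.16 on FPKM and -0.21 to 0.18 with 1 library left out. For GLP 8-3 it was 0.51 and, without storage features, 0.017 with total-count scaling, 0.054 on FPKM and -1.75 to 0.083 with 1 library left out. For GLP 8-4 it was 0.39 with total-count scaling, and with 1 library left out it was -0.022 to 0.37 for GLP 8-7 and -0.19 to 0.83 for GLP 8-10. The cause was not tested.

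The alternatives for the other lists were chosen after seeing the data. Calls over all features moved as well, from 3619 higher and 3529 lower. They were 2003 to 4040 and 2009 to 4288 with 1 library left out, 16481 and 863 with total-count scaling, and 14644 and 866 on FPKM. Superoxide, peroxide and oxalate enzymes called higher (8) and lower (3) numbered 18 and 0 with total-count scaling and on FPKM, 3 and 1 at an adjusted p under 0.01, and 3 to 8 and 1 to 3 with 1 library left out; 1 was lower without a filter and 1 with total-count scaling without storage features. Glutelins called lower (0) numbered 6 with DESeq2 and on FPKM, 1 with limma-voom and 0 to 3 with 1 library left out. Cluster neighbours called higher (11) and lower (9) numbered 59 and 3 with total-count scaling, 38 and 4 without storage features, 54 and 3 on FPKM, 6 and 4 at an adjusted p under 0.01, and 6 to 14 and 5 to 11 with 1 library left out. Cluster gaps of 20 and 200 kb each gave 8 clusters. Depth limits the 21 untested genes.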
